A study of Saccharomyces cerevisiae with 10 samples.

Results

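The genes of ergosterol synthesis and of its control were followed in budding yeast under strong potassium chloride stress. They were chosen by name, as a list of 31 genes, and all 31 were found among the 5989 coding sequences of the expression table. The list holds 24 enzymes and accessory proteins of the pathway: 9 of the mevalonate stretch, 3 from squalene to lanosterol and 12 from lanosterol to ergosterol. It also holds 2 electron carriers, 2 transcription factors, 2 sterol acyltransferases and 1 sterol-binding protein. Polyadenylated RNA was sequenced from wild-type BY4741, a haploid laboratory strain that lacks HIS3, LEU2, MET17 and URA3, so every group shares these deletions. Mid-log cultures in synthetic complete medium (OD600 0.4 to 0.5, 30 °C) received KCl to 1.5 M, and cells were taken at intervals of 30 min. The 5 groups are 0 h (the unstressed controls), 0.5 h, 1 h, 1.5 h and 2 h, each with 2 libraries, 1 from time series a and 1 from time series b.

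Ergosterol is the main sterol of yeast membranes and takes the place that cholesterol has in animal cells. Acetyl-CoA is built into farnesyl pyrophosphate through mevalonate, with HMG-CoA reductase as the main point of control. Joined farnesyl units give squalene, which is epoxidised, closed to lanosterol and then demethylated, desaturated and reduced to ergosterol. Several of these late steps use molecular oxygen and haem or iron, with electrons passed on by Ncp1 and cytochrome b5. The paralogous zinc-cluster factors Upc2 and Ecm22 bind sterol response elements before many of these genes and raise their transcription when sterol runs low. Surplus sterol is esterified by Are1 and Are2 and stored in lipid droplets.

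The sterol response element has the core TCGTATA, and the closely related sequences TCGTTTA and TCGTTCA were searched with it, on both strands, in the 500 bases before each coding start. At least 1 of the 3 was found before 27 of the 31 genes (87.1%), against 19.9% of the 5969 coding sequences for which that stretch could be read. The share was 64.5% against 8.8% for TCGTTTA, 29% against 6.97% for TCGTATA and 9.68% against 6.17% for TCGTTCA. ERG12, IDI1, HMG2 and ARE2 had none. The stretches below hold every match found before the 5 genes whose level at 1.5 h was less than that at 0 h by more than 2-fold, and before HES1, the most raised gene. They were read from the RefSeq genome, build R64, 5′ to 3′ on the strand of the gene. Capitals mark a match, with TATACGA and TAAACGA being TCGTATA and TCGTTTA read from the other strand. All 6 stretches lie between annotated genes.
ERG1, chrVII:848779-848825, minus strand: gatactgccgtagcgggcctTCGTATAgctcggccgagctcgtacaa
ERG11, chrVIII:121791-121837, minus strand: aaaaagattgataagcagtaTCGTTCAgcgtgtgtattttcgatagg
ERG25, chrVII:610061-610137, plus strand: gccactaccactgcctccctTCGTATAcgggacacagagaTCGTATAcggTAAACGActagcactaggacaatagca
ERG3, chrXII:253423-253601, plus strand: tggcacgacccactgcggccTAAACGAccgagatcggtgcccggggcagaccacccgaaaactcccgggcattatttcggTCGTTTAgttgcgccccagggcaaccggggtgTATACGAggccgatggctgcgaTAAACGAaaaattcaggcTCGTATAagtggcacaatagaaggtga
NCP1, chrVIII:190292-190338, plus strand: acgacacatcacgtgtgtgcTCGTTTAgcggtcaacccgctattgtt
HES1, chrXV:781639-781685, plus strand: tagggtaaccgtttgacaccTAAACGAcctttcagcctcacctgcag
ERG3 held 5 matches and ERG25 held 3, while the other 4 genes held 1 each. The match of ERG1 was TCGTATA on the strand of the gene, 376 to 382 bases before the coding start. That of HES1 was TCGTTTA on the other strand, 329 to 335 bases before it. The set of sequences was chosen with the expression values known, and a match is a description of the letters, not of a bound site.

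Reads on coding sequences totalled 3372373 to 8325291 per library. Levels are given as CPM, read counts made comparable between libraries with edgeR's TMM factors, always in series a and then in series b. Changes are log2 fold changes with the standard error (SE) of the fit. A gene was called when edgeR's quasi-likelihood test gave a Benjamini-Hochberg adjusted p under 0.05 over all 5943 genes tested, and all 31 sterol genes were among those tested. Every level is a share of the sequenced RNA, so fewer transcripts of a gene and more of all others cannot be told apart. LEU2 and MET17 had 0 reads in every library and HIS3 had 0 to 7. URA3 had 0 to 5 reads except in the 0.5 h library of series a, which held 162 and there went against the strain's label. Genes of mating type a, the type of BY4741, had 156 to 6858 reads per gene and library, and genes of mating type alpha 4 to 393. These moved with time as well: all 5 a-type genes were lower at 1.5 and 2 h (median -1.76 and -1.48), and of 3 alpha-type genes MF(ALPHA)1 and STE3 were higher at both, by up to 3.77. Their part in the sterol results was not tested. All 5 osmostress markers (GPD1, GPP2, STL1, CTT1 and HSP12) were called higher at 1, 1.5 and 2 h, whereas at 0.5 h 1 was higher and 1 lower.

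More sterol genes rose than fell at 0.5 h in KCl, and more fell than rose at each later time. At 0.5 h 14 of the 31 genes were called higher and 6 lower than at 0 h, while 26.0% of all genes were higher and 27.7% lower. Without the 0.5 h library of series a, which held the URA3 reads, the counts were 12 and 5. At 1 h 5 genes were higher and 11 lower, against 28.8% and 28.1% of all genes. By 1.5 h the balance had moved further, to 4 higher and 21 lower, against 37.5% and 39.1%. The 2 h libraries gave 5 rises and 20 falls, against 37.8% and 37.0%. Over the 5 times together all 31 genes changed, but so did 91.7% of all genes.

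The median change of the 31 genes against 0 h was 0.13 after 0.5 h in KCl and -0.05 after 1 h, then -0.37 and -0.46 after 1.5 and 2 h, while the median of all genes stayed between -0.01 and 0.01. These comparisons share the 0 h libraries. Of the 14 genes higher at 0.5 h, 10 were called lower at 1.5 h, 3 were not called there (ERG8, ERG27 and ERG5) and HES1 was still higher. Of the 6 genes lower at 0.5 h, ERG9, ERG28 and ARE2 were higher at 1.5 h, and HMG1, HMG2 and ERG29 were lower at both. The share of all genes that switched direction in this way was not counted, so these counts have no baseline. The count of falls rests in part on the scaling: by library size alone, which moved the median of all genes by 0.32 at 1.5 h and 0.28 at 2 h, the 1.5 h split of sterol genes became 11 rises and 14 falls, and the 2 h split 10 rises and 15 falls. Rises then made up 44% of the calls on sterol genes at 1.5 h and 40% at 2 h, against 68.4% and 68.2% of the calls on all genes, where with TMM factors they made up 16% and 20%, against 48.9% and 50.6%. With TMM factors, 5 of the 31 genes were lower by more than 2-fold at 1.5 h (ERG3, ERG11, NCP1, ERG25 and ERG1), near the 12.5% of all genes. At 2 h it was 3 of the 31, also near the 10.1% of all genes. ERG25 (-1.13) and ERG1 (-1.07) passed 2-fold at 1.5 h by less than the 0.32 by which library size alone moved the median. Without the 1 h library of series a, 2 genes were called higher at 1 h, and without the 0 h library of series b, 3.

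**Figure D1:**
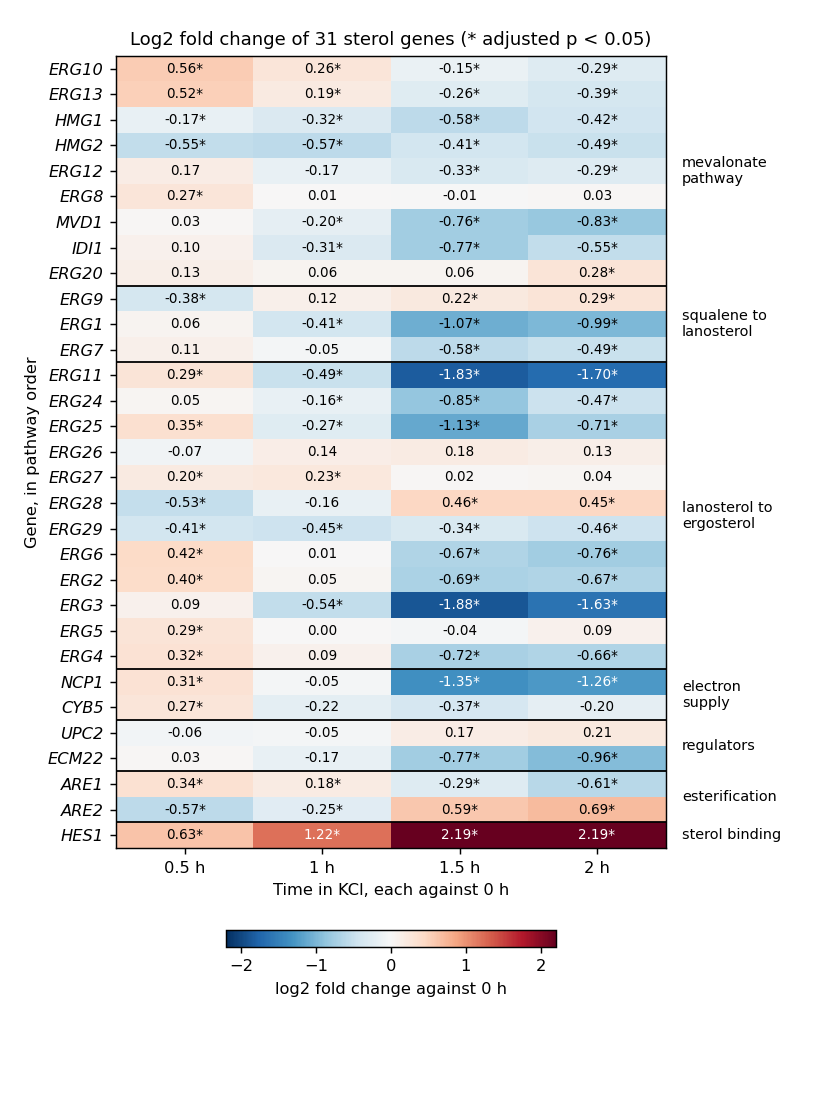
Log2 fold change of each of the 31 genes (rows, in pathway order) at 0.5, 1, 1.5 and 2 h against 0 h (columns), from 2 libraries per time, with an asterisk where the adjusted p was under 0.05. The darkest falls are those of ERG3 (-1.88) and ERG11 (-1.83) at 1.5 h, the darkest rise is that of HES1 (2.19), and 21 genes carry a call for lower at 1.5 h, or 14 when scaled by library size alone.

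In the mevalonate stretch, 3 of 9 genes rose and 2 fell at 0.5 h, near the 26.0% and 27.7% of all genes. At 1.5 h 7 of 9 fell, against 39.1% of all genes, and ERG10 and ERG13 turned to small positive values of 0.17 and 0.06 when scaled by library size alone. The opening pair of enzymes rose before it fell. ERG10 (YPL028W, chrXVI:498096-499292, plus strand) encodes acetoacetyl-CoA thiolase. The level of ERG10 was 261 and 239 CPM before KCl, 378 and 362 after 0.5 h of it, 317 and 286 after 1 h, 234 and 219 after 1.5 h, and 213 and 199 after 2 h. Both libraries were highest at 0.5 h, with no overlap with 0 h, and those of 1.5 h lay just under those of 0 h. ERG10 rose by 0.56 (SE 0.06, adjusted p = 5.4e-07) at 0.5 h and fell by 0.29 (SE 0.07, adjusted p = 0.0007) by 2 h. Its fall at 1.5 h, -0.15 (SE 0.07, adjusted p = 0.0466), was not called without the 0 h library of series a, either 0.5 h library or the 1.5 h library of series b (adjusted p up to 0.336). ERG13 (YML126C, chrXIII:19060-20535, minus strand) encodes HMG-CoA synthase. The level of ERG13 was 283 and 276 CPM before KCl, 415 and 388 after 0.5 h of it, 327 and 311 after 1 h, 236 and 233 after 1.5 h, and 199 and 224 after 2 h. It had the same order, highest at 0.5 h and lowest at 2 h. ERG13 rose by 0.52 (SE 0.06, adjusted p = 8.5e-07) at 0.5 h and fell by 0.39 (SE 0.06, adjusted p = 1.7e-05) at 2 h. When scaled by library size alone, neither ERG10 nor ERG13 was called at 2 h (adjusted p = 0.969 and 0.132). At 1 h it was still higher, by 0.19 (SE 0.06, adjusted p = 0.0158), but not without the 0 h library of series b or the 1 h library of series a (adjusted p up to 0.101).

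The reductase paralogs did not share this early rise. HMG1 (YML075C, chrXIII:115734-118898, minus strand) encodes the main HMG-CoA reductase of aerobic cells. The level of HMG1 was 137 and 153 CPM before KCl, 131 and 128 after 0.5 h of it, 117 and 116 after 1 h, 90.7 and 101 after 1.5 h, and 110 and 107 after 2 h. Its libraries went down in steps to 1.5 h, and those of 1.5 h were clear of those of 0 h. HMG1 fell by 0.58 (SE 0.07, adjusted p = 2.4e-07) at 1.5 h and fell by 0.42 (SE 0.07, adjusted p = 1.8e-05) at 2 h, the latter not called when scaled by library size alone (adjusted p = 0.0809). Its value at 0.5 h, -0.17 (SE 0.07, adjusted p = 0.0469), was lost without any of 7 libraries, those of 0.5, 1 and 2 h and the 0 h library of series b (-0.08, adjusted p = 0.404, without the last). It was also not called with the DESeq2 size factors or the DESeq2 test (adjusted p = 0.147 and 0.371). HMG2 (YLR450W, chrXII:1032627-1035764, plus strand) encodes the isozyme that is degraded faster when pathway products build up. The level of HMG2 was 131 and 130 CPM before KCl, 82.2 and 93.7 after 0.5 h of it, 86.9 and 88.5 after 1 h, 95.4 and 100 after 1.5 h, and 98.9 and 89.7 after 2 h. It was low at every time in KCl, with little movement after 0.5 h. HMG2 fell by 0.55 (SE 0.07, adjusted p = 4.1e-06) at 0.5 h and by 0.57, 0.41 and 0.49 at the later times. By library size alone its change at 1.5 h was -0.09 (adjusted p = 0.247). Within each library the ratio of HMG2 to HMG1 per coding length was -0.05 and -0.23 on the log2 scale before KCl, -0.66 and -0.43 after 0.5 h of it, and 0.09 and -0.01 after 1.5 h.

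The other 5 genes of the stretch split into falls and small changes. MVD1, mevalonate pyrophosphate decarboxylase, fell by 0.76 (SE 0.07, adjusted p = 3.2e-09) at 1.5 h. IDI1, isopentenyl pyrophosphate isomerase, fell by 0.77 (SE 0.06, adjusted p = 6.9e-10), and ERG12, mevalonate kinase, fell by 0.33 (SE 0.09, adjusted p = 0.00226). The fall of ERG12 was -0.01 (adjusted p = 0.946) when scaled by library size alone. ERG8, phosphomevalonate kinase, rose by 0.27 (SE 0.07, adjusted p = 0.00205) at 0.5 h and was at -0.01 and 0.03 at 1.5 and 2 h, not called. ERG20, farnesyl pyrophosphate synthase, was called against 0 h at 2 h alone, where it rose by 0.28 (SE 0.06, adjusted p = 0.00046). When scaled by library size alone, ERG20 was also called higher at 1.5 h. The summed level of the 9 genes was 1570 ± 38.4 CPM before KCl, 1829 ± 48.1 after 0.5 h of it, 1272 ± 20.8 after 1.5 h and 1293 ± 10.2 after 2 h (SD, n = 2).

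Between squalene and lanosterol the genes went different ways. ERG9, squalene synthase, which commits farnesyl pyrophosphate to sterols, fell by 0.38 (SE 0.07, adjusted p = 0.00023) at 0.5 h and rose by 0.22 (SE 0.07, adjusted p = 0.00672) at 1.5 h. The rise at 1.5 h was not called without the 1.5 h library of series b (adjusted p = 0.115). ERG1 (YGR175C, chrVII:846933-848423, minus strand) encodes squalene epoxidase, the target of terbinafine, whose upstream match is printed above. The level of ERG1 was 492 and 495 CPM before KCl, 524 and 504 after 0.5 h of it, 364 and 376 after 1 h, 227 and 242 after 1.5 h, and 242 and 255 after 2 h. The 0 h and 0.5 h libraries were the highest and those of 1.5 and 2 h the lowest, with a gap between them. ERG1 fell by 0.41 (SE 0.06, adjusted p = 3.4e-06) at 1 h and by 1.07 at 1.5 h. ERG7, lanosterol synthase, fell by 0.58 (SE 0.06, adjusted p = 2e-08) at 1.5 h.

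From lanosterol to ergosterol, 7 of 12 genes rose and 2 fell at 0.5 h, against 26.0% and 27.7% of all genes, whereas at 1.5 h 1 rose and 8 fell, against 37.5% and 39.1%. Their summed level went from 3380 ± 4.94 CPM at 0 h to 4034 ± 71.2 at 0.5 h, 1577 ± 15.9 at 1.5 h and 1734 ± 11.1 at 2 h (SD, n = 2). ERG11 (YHR007C, chrVIII:120091-121683, minus strand) encodes lanosterol demethylase, a haem monooxygenase and the target of azole antifungals. The level of ERG11 was 1084 and 1093 CPM before KCl, 1349 and 1320 after 0.5 h of it, 763 and 783 after 1 h, 305 and 306 after 1.5 h, and 336 and 333 after 2 h. Both series were highest at 0.5 h, and every library of 1.5 and 2 h was far under every library of 0 h. ERG11 rose by 0.29 (SE 0.05, adjusted p = 5.6e-05) at 0.5 h, fell by 0.49 (SE 0.05, adjusted p = 7.8e-08) at 1 h and fell by 1.83 (SE 0.05, adjusted p = 6.1e-17) at 1.5 h. Per coding length it was the most abundant of the 31 genes at 0 h, at 683 ± 3.92 CPM per kb, and its fall at 1.5 h was among the deepest of all genes, with 2.3% of genes lower.

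ERG3 (YLR056W, chrXII:253861-254958, plus strand) encodes a sterol desaturase whose loss is a known route to azole resistance. The level of ERG3 was 594 and 585 CPM before KCl, 637 and 619 after 0.5 h of it, 415 and 395 after 1 h, 151 and 168 after 1.5 h, and 201 and 183 after 2 h. The 0.5 h libraries were slightly above those of 0 h, and the lowest were those of 1.5 h. ERG3 was at 0.09 (SE 0.06, adjusted p = 0.206) at 0.5 h, not called, and fell by 1.88 (SE 0.06, adjusted p = 8.3e-16) at 1.5 h, deeper than all but 2.0% of genes. ERG25 (YGR060W, chrVII:610564-611493, plus strand) encodes the methyl sterol oxidase that starts removal of the methyl groups of the sterol ring. The level of ERG25 was 521 and 541 CPM before KCl, 694 and 662 after 0.5 h of it, 443 and 438 after 1 h, 246 and 240 after 1.5 h, and 329 and 320 after 2 h. Its level peaked at 0.5 h, was lowest at 1.5 h and was higher again at 2 h without reaching 0 h. ERG25 rose by 0.35 (SE 0.05, adjusted p = 1.6e-05) at 0.5 h, fell by 1.13 (SE 0.06, adjusted p = 2.6e-13) at 1.5 h and was still 0.71 lower at 2 h.

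**Figure D2:**
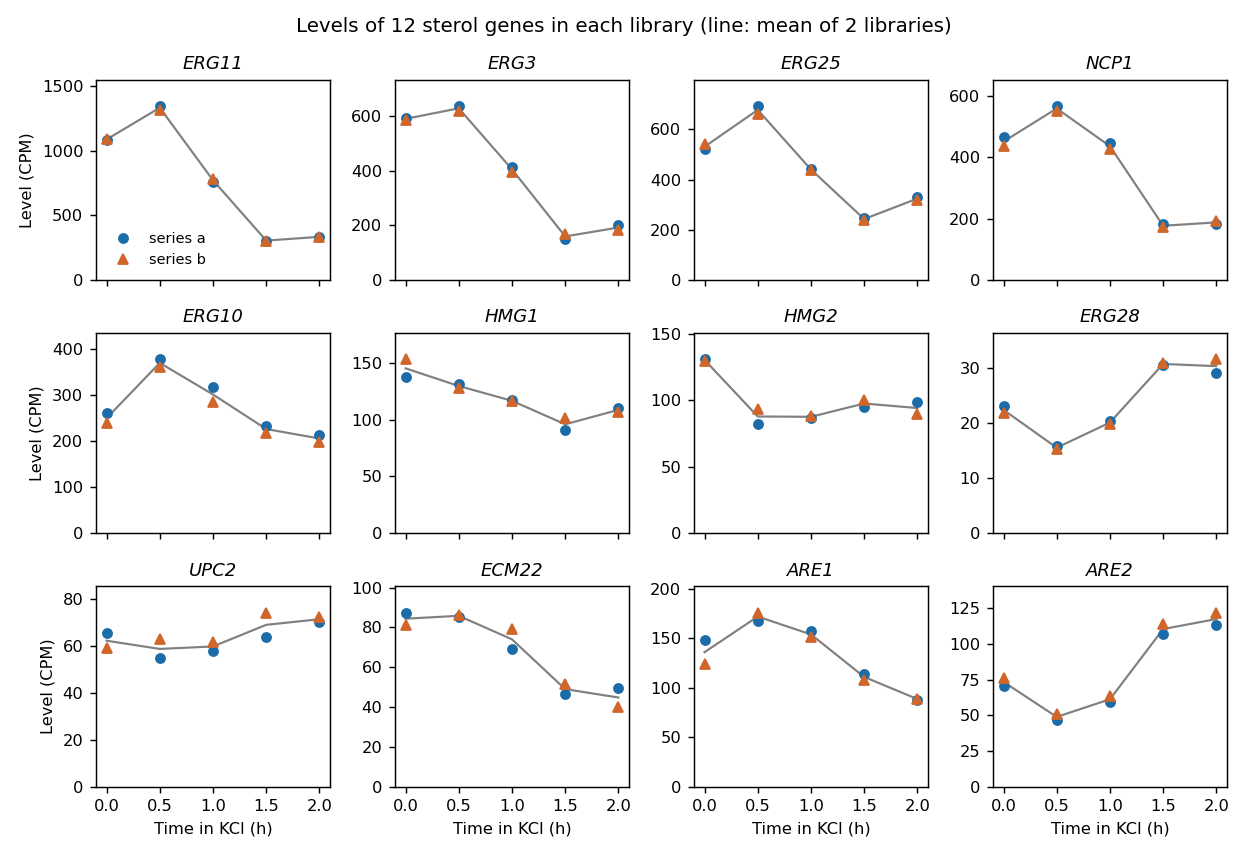
Level in CPM (vertical axis, from 0) of 12 sterol genes against time in KCl (h), with circles for series a, triangles for series b and a line through the mean of the 2 libraries. ERG11, ERG3, ERG25 and NCP1 end far under their 0 h level, whereas ARE2 and ERG28 dip at 0.5 h and end above it, as they also do when scaled by library size alone.

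Erg26, Erg27 and Erg28 work with Erg25 in the same demethylation complex, and none of their genes was called lower at 1.5 h. ERG26, the decarboxylating dehydrogenase, was not called at any time against 0 h, with changes of -0.07 to 0.18. When scaled by library size alone, ERG26 and ERG27 were among the 11 sterol genes called higher at 1.5 h. ERG27 (YLR100W, chrXII:341810-342853, plus strand) encodes the keto reductase. The level of ERG27 was 97.8 and 102 CPM before KCl, 118 and 112 after 0.5 h of it, 124 and 112 after 1 h, 105 and 98.9 after 1.5 h, and 97.8 and 105 after 2 h. The libraries of 0.5 and 1 h were the highest, by little. ERG27 rose by 0.20 (SE 0.07, adjusted p = 0.026) at 0.5 h and rose by 0.23 (SE 0.07, adjusted p = 0.0126) at 1 h, and neither rise was called without the 0 h library of series a (adjusted p up to 0.128) or without the series a library of its own time. ERG28 (YER044C, chrV:237570-238016, minus strand) encodes the scaffold that tethers the complex to the endoplasmic reticulum. The level of ERG28 was 23 and 21.7 CPM before KCl, 15.8 and 15.2 after 0.5 h of it, 20.3 and 19.8 after 1 h, 30.4 and 30.9 after 1.5 h, and 29 and 31.5 after 2 h. Its lowest libraries were those of 0.5 h and its highest those of 1.5 and 2 h, the reverse of ERG25. ERG28 fell by 0.53 (SE 0.14, adjusted p = 0.00369) at 0.5 h and rose by 0.46 (SE 0.12, adjusted p = 0.00232) at 1.5 h. The rise at 2 h was 0.45 (SE 0.12, adjusted p = 0.00294), and not called without the 2 h library of series b (adjusted p = 0.0619). ERG29, a membrane protein linked to the same oxidase step, fell by 0.41 (SE 0.09, adjusted p = 0.00096) at 0.5 h and stayed 0.34 to 0.46 lower at 1.5 and 2 h, changes that were -0.02 and -0.18 and not called when scaled by library size alone. At 1.5 h the ERG29 value was -0.21 and not called without the 1.5 h library of series b (adjusted p = 0.0801).

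Of the closing steps, ERG6, ERG2 and ERG4 rose and then fell. ERG6, the sterol methyltransferase that adds the methyl group found in fungal but not animal sterols, rose by 0.42 (SE 0.06, adjusted p = 8.9e-06) at 0.5 h and fell by 0.67 (SE 0.06, adjusted p = 6.9e-09) at 1.5 h. ERG2, the sterol isomerase, went from 0.40 to -0.69, and ERG4, the last reductase of the pathway, from 0.32 to -0.72, all called. ERG24, the reductase that follows Erg11, was not called at 0.5 h and fell by 0.85 (SE 0.07, adjusted p = 9.8e-10) at 1.5 h. ERG5, a haem monooxygenase like Erg11, rose by 0.29 (SE 0.06, adjusted p = 0.00071) at 0.5 h and was at -0.04 (SE 0.06, adjusted p = 0.604) at 1.5 h. The ratio of ERG11 to ERG5 per coding length was 9.27 and 10.1 before KCl, 9.73 and 9.68 after 0.5 h of it, and 2.85 and 2.75 after 1.5 h.

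**Figure D3:**
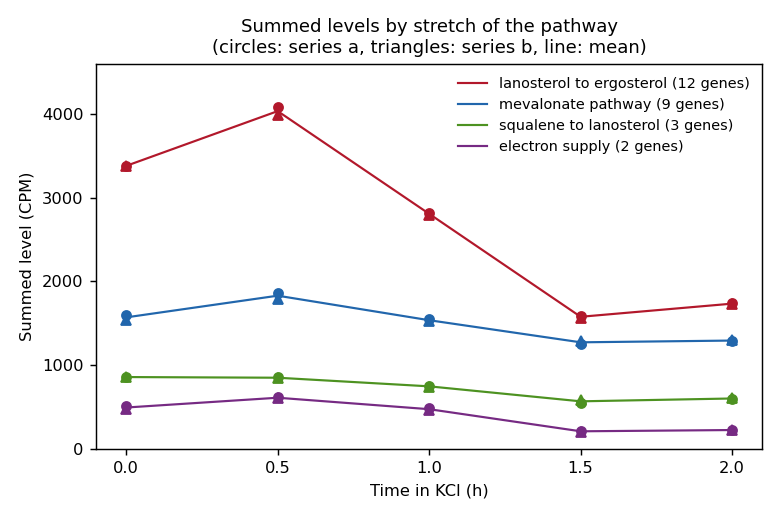
Summed level (CPM, vertical axis) of the genes of 4 stretches of the pathway against time in KCl (h), with circles for series a, triangles for series b and a line through the mean. The sum from lanosterol to ergosterol goes from 3380 CPM at 0 h to 4034 at 0.5 h and 1577 at 1.5 h, and the mevalonate sum from 1570 to 1829 and 1272.

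Of the 2 electron carriers, NCP1 changed by more than CYB5 at 1.5 h, a difference that was not tested. NCP1 (YHR042W, chrVIII:190543-192618, plus strand) encodes the NADPH-dependent reductase that supplies Erg11 and Erg1. The level of NCP1 was 467 and 436 CPM before KCl, 568 and 551 after 0.5 h of it, 446 and 427 after 1 h, 182 and 172 after 1.5 h, and 184 and 192 after 2 h. Both libraries of 0.5 h were the highest, those of 1 h overlapped those of 0 h, and those of 1.5 and 2 h were the lowest. NCP1 rose by 0.31 (SE 0.06, adjusted p = 0.00012) at 0.5 h and fell by 1.35 (SE 0.06, adjusted p = 4.5e-14) at 1.5 h. CYB5, cytochrome b5, rose by 0.27 (SE 0.10, adjusted p = 0.0269) at 0.5 h and fell by 0.37 (SE 0.10, adjusted p = 0.0033) at 1.5 h. The early rise was lost without the 0 h library of series a or either 0.5 h library (adjusted p up to 0.188), and the fall was -0.05 (adjusted p = 0.665) when scaled by library size alone. Of the 3 reductases that can feed cytochrome b5, MCR1, whose product is mitochondrial, rose by 1.64 (SE 0.05, adjusted p = 5.4e-16) at 1.5 h, while CBR1 fell by 0.41 (SE 0.06, adjusted p = 1.5e-06) and PGA3 fell by 0.64 (SE 0.06, adjusted p = 2e-08). DAP1, a haem-binding partner of Erg11, rose by 1.16 (SE 0.09, adjusted p = 2.8e-10) at 1.5 h.

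Transcripts of the paired regulators parted. UPC2 (YDR213W, chrIV:889751-892492, plus strand) encodes the factor that binds ergosterol and is released to the nucleus when it is scarce. The level of UPC2 was 65.3 and 59 CPM before KCl, 54.6 and 62.7 after 0.5 h of it, 57.8 and 61.6 after 1 h, 63.7 and 74.1 after 1.5 h, and 70.3 and 72.3 after 2 h. The libraries of 0, 0.5 and 1 h overlapped, and those of 2 h were above them. UPC2 was not called against 0 h at any time, with 0.21 (SE 0.09, adjusted p = 0.0549) at 2 h. It was called at 0.49 at both 1.5 and 2 h when scaled by library size alone and at 0.26 at both with upper-quartile factors. It was also called at 2 h at 0.28 without the 0 h library of series a and at 0.21 without either 1.5 h library, and at 1.5 h at 0.26 without the 1.5 h library of series a. From 1 to 1.5 h UPC2 rose by 0.22 (SE 0.09, adjusted p = 0.0379), a call lost without either 1 h library or the 1.5 h library of series b (adjusted p up to 0.542). ECM22 (YLR228C, chrXII:600019-602463, minus strand) encodes its paralog. The level of ECM22 was 87.4 and 81.3 CPM before KCl, 85.2 and 86.4 after 0.5 h of it, 68.9 and 79.1 after 1 h, 46.6 and 51.4 after 1.5 h, and 49.7 and 39.9 after 2 h. All libraries of 1.5 and 2 h were under all earlier ones. ECM22 fell by 0.77 (SE 0.10, adjusted p = 4.5e-07) at 1.5 h and fell by 0.96 (SE 0.10, adjusted p = 3.9e-08) at 2 h. Per coding length the log2 ratio of UPC2 to ECM22 was -0.59 and -0.63 before KCl, -0.42 and -0.53 after 1 h of it, 0.28 and 0.36 after 1.5 h, and 0.34 and 0.69 after 2 h. ECM22 was thus the more abundant transcript in every library up to 1 h and UPC2 in every library after it.

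Of 5 further transcription regulators known to act on sterol genes, 1 rose and 3 fell at 0.5 h, against 26.0% and 27.7% of all genes, and 1 rose and 4 fell at 1.5 h, against 37.5% and 39.1% of all genes. HAP1, the haem-responsive activator, fell by 0.52 (SE 0.05, adjusted p = 4.4e-08) at 1.5 h. ROX1, the repressor of hypoxic genes, fell by 0.64 (SE 0.06, adjusted p = 1.8e-08) at 0.5 h and was 0.49 lower at 1.5 h. At 2 h the falls of both were not called when scaled by library size alone, with values of -0.07 and -0.02. MOT3, another repressor of such genes, was not called at 0.5 h and rose by 0.50 (SE 0.06, adjusted p = 3.6e-07) at 1.5 h. CYC8, the corepressor that works with Tup1, fell by 1.02 (SE 0.05, adjusted p = 1e-12) at 1.5 h.

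The sterol acyltransferase genes exchanged places. ARE1 (YCR048W, chrIII:211929-213761, plus strand) encodes the isozyme with a known preference for precursors of ergosterol. The level of ARE1 was 148 and 124 CPM before KCl, 168 and 176 after 0.5 h of it, 157 and 151 after 1 h, 114 and 108 after 1.5 h, and 88.1 and 89.2 after 2 h. Its highest libraries were those of 0.5 h and its lowest those of 2 h. ARE1 rose by 0.34 (SE 0.07, adjusted p = 0.00041) at 0.5 h and fell by 0.61 (SE 0.08, adjusted p = 4.9e-07) at 2 h. Its fall at 1.5 h, -0.29 (SE 0.07, adjusted p = 0.00113), was not called without the 0 h library of series a (adjusted p = 0.068) and was 0.03 when scaled by library size alone. Its rise at 1 h, 0.18 (SE 0.07, adjusted p = 0.04), was lost without any of 5 libraries, those of 0.5 and 1 h and the 0 h library of series b (adjusted p up to 0.551). ARE1 overlaps another annotated coding sequence, YCR050C, so its counts are uncertain. ARE2 (YNR019W, chrXIV:665339-667267, plus strand) encodes the main isozyme of aerobic cells. The level of ARE2 was 70.9 and 76.1 CPM before KCl, 46.9 and 51 after 0.5 h of it, 59.1 and 63.5 after 1 h, 107 and 114 after 1.5 h, and 113 and 122 after 2 h. Its libraries were lowest at 0.5 h and highest at 1.5 and 2 h, with no overlap with 0 h at either end. ARE2 fell by 0.57 (SE 0.09, adjusted p = 2.1e-05) at 0.5 h, rose by 0.59 (SE 0.08, adjusted p = 6.7e-07) at 1.5 h and rose by 0.69 (SE 0.08, adjusted p = 9.5e-08) at 2 h. Its value at 1 h, -0.25 (SE 0.09, adjusted p = 0.0197), was not called without the 0 h library of series b or the 1 h library of series a (adjusted p up to 0.137).

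Per coding length, the ratio of ARE2 to ARE1 was 0.456 and 0.584 before KCl, 0.266 and 0.276 after 0.5 h of it, 0.357 and 0.399 after 1 h, 0.887 and 0.998 after 1.5 h, and 1.22 and 1.3 after 2 h. ARE1 was the more abundant in every library up to 1 h, the pair was nearly equal in series b at 1.5 h, and ARE2 was the more abundant in both libraries of 2 h. The sum of the pair hardly moved, from 219 and 200 CPM at 0 h to 215 and 227 at 0.5 h and 221 and 222 at 1.5 h.

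**Figure D4:**
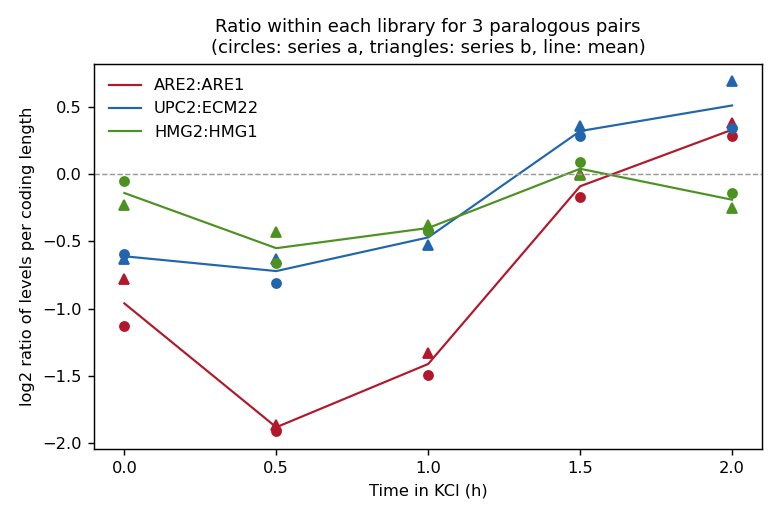
Log2 ratio of levels per coding length within each library (vertical axis) against time in KCl (h) for ARE2 to ARE1, UPC2 to ECM22 and HMG2 to HMG1, with circles for series a, triangles for series b and a line through the mean. The ratio ARE2 to ARE1 goes from a mean of -1.88 at 0.5 h to 0.33 at 2 h and UPC2 to ECM22 from -0.72 to 0.51, whereas HMG2 to HMG1 stays between -0.55 and 0.04.

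HES1 rose at every time and by more than any other of the 31 genes. HES1 (YOR237W, chrXV:781994-783298, plus strand) encodes a member of the oxysterol-binding protein family, which moves sterols and phosphoinositides between membranes. The level of HES1 was 5.58 and 6.17 CPM before KCl, 9.06 and 9.09 after 0.5 h of it, 13.1 and 14.1 after 1 h, 26.2 and 27.5 after 1.5 h, and 29.3 and 25.5 after 2 h. The level went up at each time to 1.5 h in both series, with no overlap with 0 h, and was similar at 1.5 and 2 h. HES1 rose by 1.22 (SE 0.21, adjusted p = 5.4e-05) at 1 h and rose by 2.19 (SE 0.18, adjusted p = 8.3e-10) at 1.5 h, where 95.7% of genes had a smaller value. Its rise at 0.5 h, 0.63 (SE 0.22, adjusted p = 0.0226), was not called without either 0 h library or the 0.5 h library of series b (adjusted p up to 0.116). HES1 was also the least abundant of the 31 genes at 0 h, at 4.5 ± 0.322 CPM per kb. KES1, another member of the family, fell by 0.99 (SE 0.06, adjusted p = 1.8e-11) at 1.5 h. Per coding length HES1 stood at 0.0261 and 0.0302 of KES1 at 0 h and at 0.257 and 0.256 at 1.5 h.

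Between 0.5 and 1 h and between 1 and 1.5 h falls outnumbered rises, which they did not from 1.5 to 2 h. From 0.5 to 1 h 5 genes were called higher and 19 lower, against 32.9% and 32.1% of all genes. The higher count was 1 without the 1 h library of series b, 3 without that of series a and 3 without the 0.5 h library of series b. From 1 to 1.5 h 4 were higher and 18 lower, against 34.1% and 34.0%, and by library size alone 11 and 13, or with upper-quartile factors 7 and 16. Rises were 18.2%, 45.8% and 30.4% of the calls on sterol genes under the 3 scalings in turn, against 50.1%, 75.8% and 61.1% of the calls on all genes. The median change was -0.22 in the earlier interval and -0.41 in the later, and 0.01 for all genes in both. ERG11 fell by 0.79 (SE 0.05, adjusted p = 6.8e-11) from 0.5 to 1 h and fell by 1.34 (SE 0.05, adjusted p = 1.7e-14) from 1 to 1.5 h. NCP1 fell by 0.36 (SE 0.06, adjusted p = 1.3e-05) and then fell by 1.30 (SE 0.06, adjusted p = 1.5e-13), so that most of its loss came after 1 h.

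From 1.5 to 2 h 5 genes were called higher and 1 lower, against 15.5% and 9.46% of all genes. ERG25 rose by 0.42 (SE 0.06, adjusted p = 2.1e-05), ERG24 rose by 0.39 (SE 0.07, adjusted p = 0.00043), ERG3 rose by 0.25 (SE 0.07, adjusted p = 0.00932), ERG20 rose by 0.23 (SE 0.06, adjusted p = 0.00931) and IDI1 rose by 0.22 (SE 0.06, adjusted p = 0.0155). The higher count was 2 without the 1.5 h library of series a and 3 without the 2 h library of series a, with the calls on ERG3 and ERG20 lost in both. The call on IDI1 was lost without either 1.5 h library or the 2 h library of series b (adjusted p up to 0.209). The lower gene was ARE1, which fell by 0.32 (SE 0.07, adjusted p = 0.00343), and the lower count was 2 without either 2 h library. ERG11 was at 0.13 (SE 0.05, adjusted p = 0.0796) in this interval, not called.

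At 1.5 and 2 h, genes that were abundant before the stress tended to have fallen further. Across the 31 genes, the level at 0 h per kb and the change at 1.5 h had a Spearman correlation of -0.59, and across 5928 genes it was -0.55, so the relation was about as strong for all genes. At 0.5 h the coefficients were 0.44 and 0.13, at 1 h -0.11 and -0.33, and at 2 h -0.58 and -0.55. Genes are not independent replicates, and the same 0 h libraries enter both measures.

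**Figure D5:**
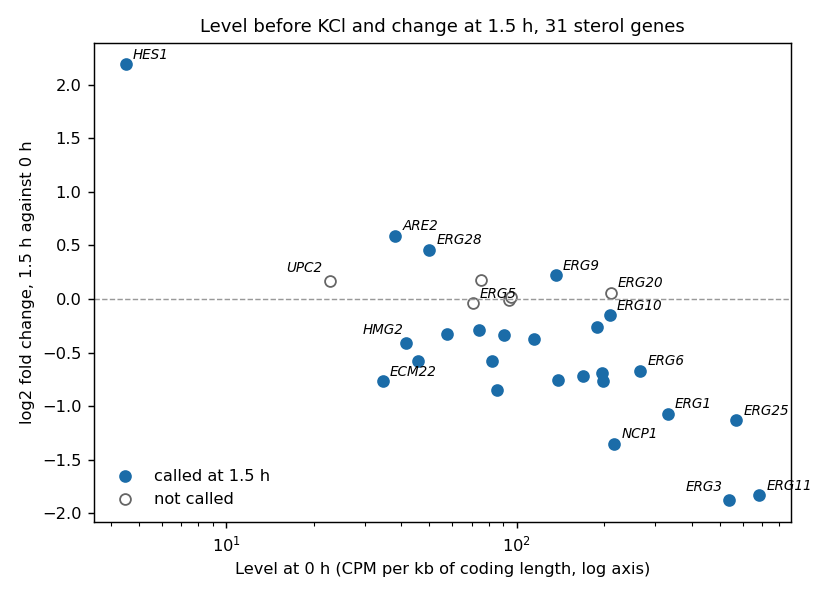
Level at 0 h (CPM per kb of coding length, log axis) against log2 fold change at 1.5 h for the 31 sterol genes, filled where called and open where not. ERG11, ERG25 and ERG3, at 683, 571 and 537 CPM per kb, lie at the lower right, and HES1, at 4.5, at the upper left.

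The sterol genes were also divided by whether a sterol element sequence was found, with no test, since only 4 lack one. The 27 genes with at least 1 of the 3 sterol element sequences had a median change of -0.37 at 1.5 h against 0 h, from -1.88 to 2.19, and the 4 without had a median of -0.37, from -0.77 to 0.59. The medians with and without were 0.20 and -0.23 after 0.5 h of KCl, -0.05 and -0.28 after 1 h, then -0.46 and -0.39 after 2 h. From 1 to 1.5 h they were -0.44 and 0.00. The core ATTGTT, bound by Rox1, was found before 19 of the 31 genes (61.3%) and before 48.9% of all genes. AGGCA, bound by Mot3, was also found before 19 (61.3%), against 51.8%. The stress response element AGGGG was found before 10 (32.3%), against 34.1%.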

How the data were processed

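The samples are 10 poly(A) RNA libraries, 2 at each of 5 times in KCl. The authors deposited 1 table with a read count per coding sequence and library. Per the file headers the deposited counts are raw read counts, but 2.77% of them end in 0.5, so they were handled as estimated counts and rounded. The FPKM, RPKM, TPM and transcript count columns, 4 in all, were not used. The submitters' processing notes name build R64. Neither the aligner nor the counting tool nor the strandedness is stated in the labels or headers.

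Of 65885 lines, 1302 gene and mRNA lines and 4693 identical second copies were left out. Of 5989 coding sequences, 206 overlap another, and their counts are uncertain. Counts were tested with edgeR 4.0.16 (R 4.3.3) over the 10 libraries with a term for the time group alone, filterByExpr (46 sequences left out), TMM (factors 0.8763 to 1.1614), the two-sided quasi-likelihood test and Benjamini-Hochberg adjustment over 5943 genes at 0.05. The biological coefficient of variation was 4.05%. The SE was taken as the absolute log2 fold change over the root of F. Totals of 3372373 to 8325291 reads put 3 reads at 0.36 to 0.89 CPM, a floor that covers counting error only. Alternatives were other scalings, DESeq2 1.42.0, no filter on low counts, leaving out overlapping sequences, leaving out each library, and a replicate block.

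The design text calls series a and b independent replicate experiments. The p-values rest on the spread between the 2 libraries of a time, estimated jointly over all 10 libraries, so each comparison also draws on libraries outside it. The members, lists and sequences were chosen with earlier results of these data known. Genes given in every library are the 3 largest called rises and falls at each time against 0 h, the paralogous pairs, ERG11, ERG25, ERG3 and HES1; ERG1 was added for its printed sequence. On simulated counts of 5932 genes at 1.5 h, 5732 were left unchanged. The test recovered 56% of genes changed 1.25-fold, 98% at 1.5-fold and 100% at 2-fold and 4-fold, with 8 false calls. In the data 4551 genes were called at 1.5 h against 0 h, and library size alone moved the median of all genes by 0.32. The simulation, with few genes changed, did not cover that case, so its rates cannot be carried over to these calls. Python 3.11.15 read the sequences.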

Additional observations from a re-analysis of the deposited data

Results flagged for a closer look

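For 6 genes, the change against 0 h was called in opposite directions at successive times, and the step between those times passed edgeR's quasi-likelihood test. The number of genes outside the list that did the same was not counted. Opposite calls against the same 0 h libraries make a called step between them likely, so the step is no separate support. ERG11 went from 0.29 at 0.5 h to -0.49 at 1 h against the same 0 h libraries, both called, and the interval itself gave -0.79 (SE 0.05, adjusted p = 6.8e-11). ERG25 went from 0.35 at 0.5 h to -0.27 at 1 h against the same 0 h libraries, both called, and the interval itself gave -0.62 (SE 0.05, adjusted p = 5.6e-09). ERG10 went from 0.26 at 1 h to -0.15 at 1.5 h against the same 0 h libraries, both called, and the interval itself gave -0.41 (SE 0.06, adjusted p = 1.1e-05). ERG13 went from 0.19 at 1 h to -0.26 at 1.5 h against the same 0 h libraries, both called, and the interval itself gave -0.44 (SE 0.06, adjusted p = 2.7e-06). ARE1 went from 0.18 at 1 h to -0.29 at 1.5 h against the same 0 h libraries, both called, and the interval itself gave -0.47 (SE 0.07, adjusted p = 5.3e-06). ARE2 went from -0.25 at 1 h to 0.59 at 1.5 h against the same 0 h libraries, both called, and the interval itself gave 0.84 (SE 0.08, adjusted p = 5.5e-09). The ERG10, ERG13 and ARE1 steps were not called when scaled by library size alone, at -0.09, -0.12 and -0.15. Some of the calls against 0 h were lost when 1 library was left out: ARE1 at 1 h in 5 of 10 fits and at 1.5 h in 1, ERG10 at 1.5 h in 4, and ERG13 and ARE2 at 1 h in 2 each. The cause was not tested.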

How the results depend on the processing

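Over 7 comparisons 138 calls were made on the 31 genes, and in all 138 both series had the same sign and the libraries of the 2 times did not overlap. That is no separate support, since the calls come from the same libraries. Changes that were not called, such as that of ERG3 at 0.5 h (0.09), also lacked overlap. How often this held over all genes was not counted. Leaving out 1 library in turn ended 28 of the 138 calls in at least 1 of 10 fits, none above 0.63 in absolute log2 change. Scaling by library size alone raised the median of all genes by 0.32 at 1.5 h against 0 h and by as much at 1.5 h against 1 h, and small falls turned positive with that shift. In this way the 1.5 h against 0 h values of ERG10 (0.17), ERG13 (0.06), ERG8 (0.31), ERG5 (0.28) and ARE1 (0.03) changed sign. So did the 1.5 h against 1 h values of HMG1 (0.06), ERG8 (0.30), ERG20 (0.32), ERG27 (0.12) and ERG5 (0.28). The sterol genes called higher then numbered 11 at 1.5 h against 0 h, 10 at 2 h against 0 h and 11 at 1.5 h against 1 h, and with upper-quartile factors 7 at 1.5 h against 0 h and 7 at 1.5 h against 1 h. With DESeq2 size factors 3 genes were higher at 1 h against 0.5 h. The DESeq2 test called 2 higher at 1 h against 0 h, 1 at 1 h against 0.5 h and 3 at 2 h against 1.5 h, where it called 761 genes in all against 1485. Without overlapping coding sequences, which removes ARE1, 0 sterol genes were lower at 2 h against 1.5 h. Leaving out 1 library gave 2 to 5 higher at 1 h against 0 h, 1 to 5 at 1 h against 0.5 h, 2 to 5 higher and 1 to 2 lower at 2 h against 1.5 h, and 861 to 1590 genes in all in that last interval. The filter on low counts changed no call on the 31 genes.

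The letters a and b name the time series, and the main fit held no term for them. Whether they pair the samples across times was not settled. Deviations from the mean of a time correlated at -0.113 to 0.314 between times over 5613 genes, which are not independent. With the replicate block, 10 sterol genes in place of 11 were lower at 1 h against 0 h, since ERG24 (-0.16) had an adjusted p of 0.0514, and no other call on the 31 genes changed. HES1 and ERG28, which had the fewest reads of the 31 genes, are those that depth limits most.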

Other observations

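Genes around the pathway, from lists drawn up by function, changed in both directions, while 37.5% of all genes rose and 39.1% fell at 1.5 h, and 26.0% and 27.7% at 0.5 h. Of 5 genes of sterol ester hydrolysis and sterol acetylation, 2 rose and 1 fell at 0.5 h, and 3 fell at 1.5 h. ATF2, which acetylates steroids, rose by 0.43 (SE 0.11, adjusted p = 0.00208) at 0.5 h and fell by 0.91 (SE 0.12, adjusted p = 1.1e-06) at 1.5 h. YEH1, a steryl ester hydrolase, rose by 0.33 (SE 0.11, adjusted p = 0.0138) at 0.5 h and fell by 0.56 (SE 0.11, adjusted p = 0.00017) at 1.5 h. Of the 6 members of the oxysterol-binding family other than HES1, 3 rose and 3 fell at 1.5 h, with OSH2 at 0.83 (SE 0.06, adjusted p = 9e-11) and SWH1 at -0.75 (SE 0.06, adjusted p = 6.9e-10). Of 6 LAM genes, whose products carry sterol at membrane contact sites, 2 fell at 0.5 h and 3 rose at 1.5 h, with LAM5 at -0.56 and 0.84. Of 13 genes of sterol uptake, vacuolar sterol and hypoxic cell wall, 5 fell at 0.5 h, and 7 rose and 5 fell at 1.5 h. DAN1, a cell wall mannoprotein gene of hypoxic cells, had 1 read in each library of 0 h, under the floor of 3 reads, and 4.56 and 4.28 CPM after 1.5 h of KCl, so that no fold is given. PAU23, of the same kind and with many near-identical relatives, so that its counts are uncertain, rose by 1.37 (SE 0.17, adjusted p = 5.7e-07) at 1.5 h, and TIR1 fell by 0.87 (SE 0.14, adjusted p = 1.2e-05).

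Of 8 genes of HMG-CoA reductase turnover, 4 rose and 2 fell at 1.5 h, against 37.5% and 39.1% of all genes. NSG2 rose by 1.08 (SE 0.06, adjusted p = 3.2e-12), and HRD1, the ligase of Hmg2 degradation, rose by 0.48 (SE 0.08, adjusted p = 2.6e-05). The genes called lower were DER1 and NSG1. The level of NSG1 went from 110 and 107 CPM before KCl to 88.5 and 86.3 after 1.5 h of it. Of 10 genes of haem synthesis and binding, 4 rose and 4 fell at 1.5 h, near those shares of all genes. HMX1, haem oxygenase, rose by 2.17 (SE 0.11, adjusted p = 4e-13), while HEM13 fell by 1.60 (SE 0.07, adjusted p = 2.5e-14) and HEM12 fell by 1.21 (SE 0.06, adjusted p = 5.6e-13), both enzymes of haem synthesis. Of the other genes of haem synthesis, HEM14 and HEM15 were called higher, HEM1 and HEM3 lower, and HEM2 and HEM4 were not called. Of 10 genes of other isoprenoid branches, 3 rose and 4 fell at 1.5 h, also near the shares of all genes. For dolichol synthesis, NUS1 rose by 1.46 (SE 0.08, adjusted p = 7.1e-13) and SRT1 rose by 1.46 (SE 0.23, adjusted p = 8.9e-06), whereas RER2, the paralog of SRT1, fell by 0.74 (SE 0.08, adjusted p = 2.9e-08). The adjusted p-values come from edgeR. The cause of these changes was not tested.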
